A study of Mus musculus with 4 samples.

Results

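Aminoacyl-tRNA synthetases were examined in mouse blastocysts through 36 genes, 20 for enzymes of the cytosol and 16 for enzymes of mitochondria, whose symbols end in 2. The genes were chosen by name from the 20714 gene symbols that were listed in both assays. Each of the 36 was listed once in every library, always above 0, and all 36 had a mean of at least 1 FPKM (fragments per length and library size) in both assays.

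The study profiled oocytes and early embryos with RNA-seq, Ribo-seq, and mass spectrometry, and the blastocyst libraries were analyzed here. These were 2 RNA-seq and 2 Ribo-seq libraries from wild-type embryos of 4-week-old C57BL/6J females mated with PWK/PhJ males, although the strain tag of the labels reads C57BL/6N x PWK. To induce ovulation, the females were injected with the hormones PMSG and hCG. The paper cautions that superovulation and culture may affect embryo quality and the proteome. The embryos were taken at the 8-cell stage, grown to blastocysts in KSOM medium, and freed of the zona pellucida, so the values average over all cells of the embryo, and fewer cells of a type and less RNA per cell cannot be told apart. RNA-seq (Smart-seq2) gave the mRNA level per transcript length, and Ribo-seq (Ribo-lite) gave the level of ribosome-protected fragments (RPF) per coding length. The labels do not say whether libraries of 1 assay came from separate embryo pools, so p-values measure the spread between these libraries, which may be technical.

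The steps in low FPKM values implied 5449708 and 5158377 fragments for the RNA-seq libraries and 533595 and 483880 for the Ribo-seq libraries. For a coding sequence of 1000 bases, 3 footprints were then worth 7.03 and 7.75 FPKM, a limit that covers counting error only. Of the trophectoderm markers, 5 of 5 were at or above 1 FPKM in all 4 libraries, as were 2 of 4 epiblast markers and 1 of 4 primitive endoderm markers. The epiblast and primitive endoderm markers that missed this level (Sox2, Fgf4, Gata4, Sox17, and Pdgfra) missed it in RNA-seq only. Their mRNA levels ran from 0 to 1.36 FPKM, whereas their RPF levels ran from 5.08 to 37.1 FPKM. The cause of this gap between the assays was not tested. The summed mRNA level of the epiblast markers was 141 and 57.7 FPKM in the RNA-seq replicates. The 4 cumulus and granulosa cell markers were at 0 in all 4 libraries, and so were 2 of 4 oocyte markers (Bmp15 and Oosp1). Summed oocyte markers ranged from 0 to 1.92 FPKM.

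An aminoacyl-tRNA synthetase joins an amino acid to the tRNAs that carry its codons, and so sets which residue a codon stands for. Cytosolic enzymes serve the ribosomes that translate nuclear genes, whereas mitochondrial enzymes are made in the cytosol, imported, and serve the few proteins encoded by mitochondrial DNA. In most cases separate genes encode the enzymes of both compartments. Glycyl- and lysyl-tRNA synthetase (Gars and Kars) are exceptions, as each gene supplies both. Animal cells hold several cytosolic synthetases in a large multi-tRNA synthetase complex, built on scaffold proteins.

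The cytosolic enzymes were well represented in both assays. Their median mRNA level was 36.04 and 39.0 FPKM in replicates 1 and 2, and their median RPF level was 86.3 and 116 FPKM. Levels of mRNA ran from 6.96 FPKM (Vars, replicate 1) to 117 FPKM (Nars, replicate 2), and levels of RPF from 24.1 FPKM (Lars, replicate 2) to 748 FPKM (Dars, replicate 2). In terms of footprints, each cytosolic gene had between 25 and 472 in a library, with a median of 107 in both. Between replicates their RPF levels differed by a median of 0.16 on the log2 scale, against 0.48 for all 8327 genes tested.

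The highest RPF levels belonged to the enzymes for aspartate, asparagine, and glycine. Dars, the aspartyl enzyme of the multi-tRNA synthetase complex, had 406 and 748 FPKM of RPF, beside 33.9 and 30.2 FPKM of mRNA. Nars, which charges asparagine, had 362 and 351 FPKM of RPF, beside 95.3 and 117 FPKM of mRNA. Gars had 239 and 218 FPKM of RPF, with 92.4 and 101 FPKM of mRNA. The RPF level of Dars was 1.12 times that of Nars in replicate 1 and 2.13 times in replicate 2, so the order of these genes was the same but the distance was not.

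The lowest cytosolic RPF levels were those of Lars, Vars, and Farsa. Lars, the leucyl enzyme, had 36.4 and 24.1 FPKM of RPF with 17.2 and 19.6 FPKM of mRNA. Vars, the valyl enzyme, had 37.2 and 39.6 FPKM of RPF with 6.96 and 7.10 FPKM of mRNA, the lowest mRNA level among the cytosolic genes in both RNA-seq libraries. Farsa, the catalytic subunit of the phenylalanyl enzyme, had 40.9 and 38.9 FPKM of RPF with 17.4 and 15.4 FPKM of mRNA. The RPF values of Vars and Farsa in the libraries overlapped.

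The remaining cytosolic genes fell between these. Sars (serine) had 226 and 197 FPKM of RPF and Aars (alanine) 207 and 201, and their ranges overlapped. Rars (arginine), Tars (threonine), Kars (lysine), and Farsb (the other phenylalanyl subunit) ranged from 118 to 193 FPKM. Qars (glutamine), Yars (tyrosine), Mars (methionine), Hars (histidine), and Wars (tryptophan) ranged from 57.1 to 119 FPKM, and Cars (cysteine), Iars (isoleucine), and Eprs from 50.6 to 55.7 FPKM. Eprs, a fused enzyme that charges both glutamate and proline, had 50.6 and 51.3 FPKM of RPF, beside 25.2 and 33.6 FPKM of mRNA.

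**Figure D1:**
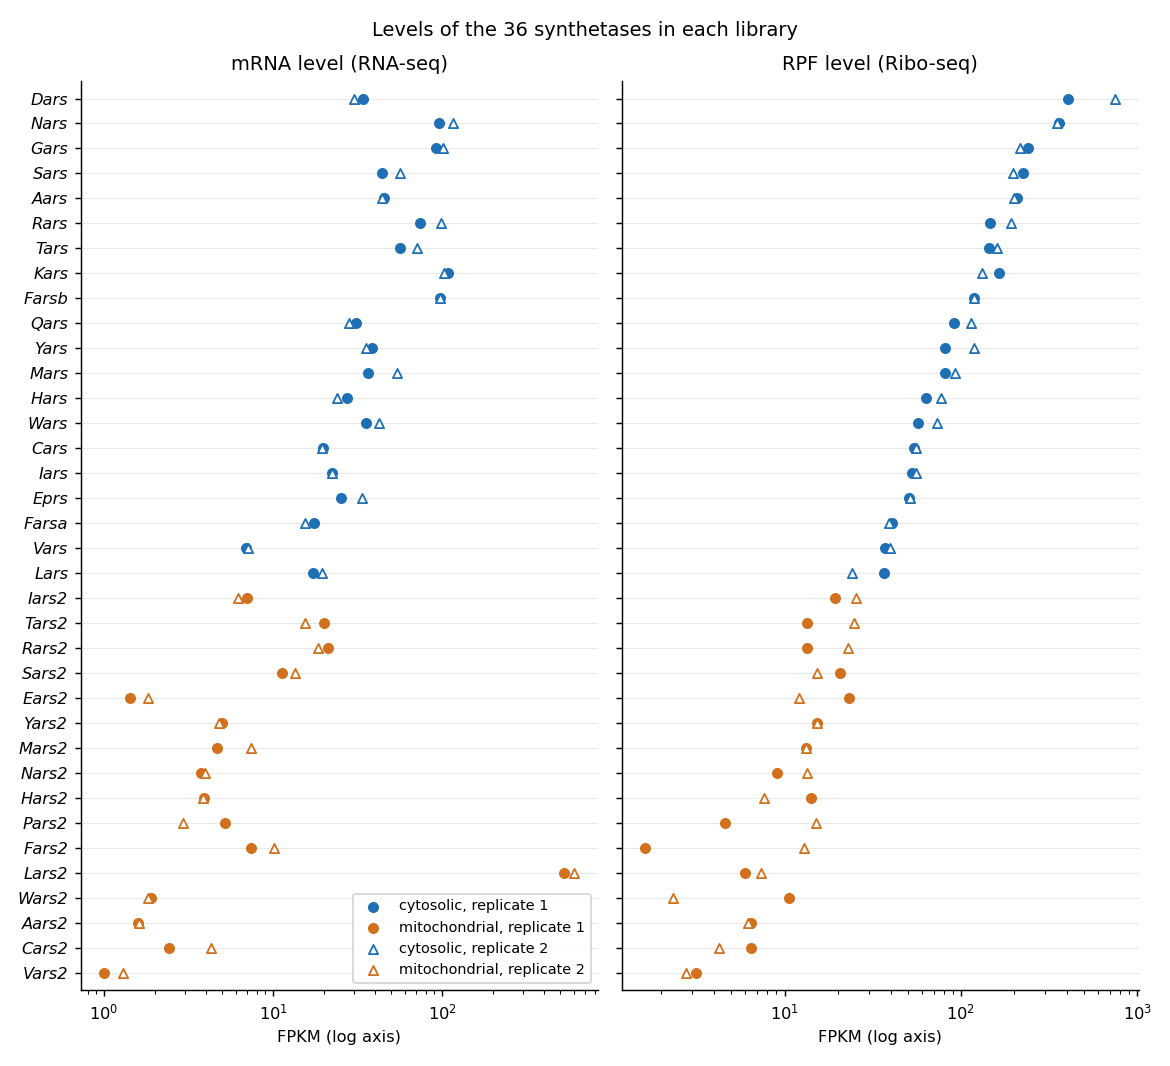
Each row is 1 of the 36 synthetases, ordered by mean RPF level, with the mRNA level on the left and the RPF level on the right, both in FPKM on log axes. Circles are replicate 1 and triangles replicate 2. The 20 cytosolic genes fill the top rows by RPF, from Dars to Lars, while Lars2 at 527 and 606 FPKM has the highest mRNA level of all 36.

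Farsa and Farsb encode the subunits of 1 enzyme, which holds equal numbers of both. Farsb had 96.9 and 97.1 FPKM of mRNA, which was 5.55 and 6.29 times the Farsa level. Its RPF level of 119 and 118 FPKM was 2.91 and 3.04 times that of Farsa. The subunits thus lay closer together in RPF than in mRNA in every library, with no overlap between the ratios of the assays. The Farsb gene shares exonic bases with Sgpp2, and the RNA-seq is not stated to be stranded.

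Gars and Kars, which serve both compartments, stood among the higher cytosolic genes. Kars had 109 and 102 FPKM of mRNA and 164 and 131 FPKM of RPF. By mRNA, Gars was at 0.849 and 0.992 times Kars, and by RPF at 1.46 and 1.66 times Kars, so their order differed between the assays. For Kars, 5.09% of the 28-base windows of its coding sequence occur at more than 1 place in the genome. Gars is known to give its mitochondrial form from the first start codon and its cytosolic form from a later one. To show how close such starts lie, the first 150 bases of the coding sequence of its GENCODE transcript are given (NCBIM37 chr6:54988036-54988185, plus strand), with the start codon and the next in-frame ATG, codon 47, in capitals.
Gars: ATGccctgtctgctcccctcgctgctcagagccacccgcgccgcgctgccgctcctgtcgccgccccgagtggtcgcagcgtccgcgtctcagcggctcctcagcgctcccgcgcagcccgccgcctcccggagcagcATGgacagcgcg
From the first ATG the reading frame holds 729 codons before the stop, and from the second 683. Gene-level FPKM do not separate the products of these start codons.

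The mitochondrial enzymes were present at lower levels. Their median mRNA level was 4.84 and 4.56 FPKM, and their median RPF level was 11.9 and 13.1 FPKM. Footprints per gene ran from 1 to 29 in replicate 1 and from 1 to 35 in replicate 2, with medians of 9.5 and 8.5, and the 16 genes together had 159 and 168 footprints. In comparison, the 20 cytosolic genes had 2642 and 2655. Between replicates the mitochondrial RPF levels differed by a median of 0.50 on the log2 scale, and 3 of the 16 differed by 2-fold or more.

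Iars2, Tars2, and Rars2, the enzymes for isoleucine, threonine, and arginine, had the highest mitochondrial RPF levels by the mean over replicates. Iars2 had 19.4 and 25.4 FPKM of RPF (29 and 35 footprints), beside 7.01 and 6.18 FPKM of mRNA. Tars2 had 13.5 and 24.7 FPKM of RPF, beside 20.0 and 15.5 FPKM of mRNA. Rars2 had 13.4 and 22.8 FPKM of RPF, beside 21.2 and 18.3 FPKM of mRNA. The RPF ranges of the 3 genes overlapped with each other and with those of Ears2, the glutamyl enzyme, at 23.2 and 12.04 FPKM, and Sars2, the seryl enzyme, at 20.7 and 15.2 FPKM. In replicate 1, Ears2 and Sars2 were the highest of the mitochondrial genes.

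Vars2, Cars2, and Aars2, for valine, cysteine, and alanine, had the lowest means. Vars2 had 3.13 and 2.76 FPKM of RPF, from 5 and 4 footprints, and 1.00 and 1.29 FPKM of mRNA. Cars2 had 6.42 and 4.25 FPKM of RPF, from 5 and 3 footprints, with 2.43 and 4.32 FPKM of mRNA. Aars2 had 6.48 and 6.23 FPKM of RPF, from 9 and 8 footprints, and 1.58 and 1.60 FPKM of mRNA. All 3 were read from few footprints, and the values of Cars2 and Aars2 did not separate in replicate 1.

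Some mitochondrial genes could not be placed at this depth. Fars2, the phenylalanyl enzyme of mitochondria, had 1.62 FPKM of RPF in replicate 1, worth 1 footprint, and 12.9 FPKM in replicate 2, worth 7 footprints. Pars2 (proline) had 4.58 and 15.1 FPKM, from 3 and 10 footprints. Wars2 (tryptophan) had 10.6 and 2.34 FPKM, from 5 and 1 footprints. These 3 genes had the widest replicate gaps of the 36, and together with Cars2 they were the members at or under 3 footprints in a library. The other mitochondrial genes, Sars2, Yars2, Mars2, Nars2, Hars2, and Lars2, had RPF levels from 5.96 to 20.7 FPKM.

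The cytosolic and mitochondrial enzymes were compared because they serve separate ribosomes. The cytosolic median was 7.45 and 8.56 times the mitochondrial median in mRNA and 7.25 and 8.87 times in RPF. With each gene's log2(FPKM+1) averaged over replicates, the difference in medians was 2.85 for mRNA (SD 0.13 between the 2 replicates) and 3.10 for RPF (SD 0.21). In Ribo-seq replicate 1, all 20 cytosolic genes lay above every mitochondrial gene. In replicate 2, 19 of 20 did, since Lars at 24.1 FPKM lay below Tars2 and Iars2. By mRNA, 0 of 20 cytosolic genes lay above every mitochondrial gene, because Lars2 exceeded them all; without Lars2 it was 16 and 18 of 20. Members of a list are not replicates, and the list was drawn up with results of these data known, so no test was applied.

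Pairing each mitochondrial enzyme with the cytosolic enzyme for the same amino acid gave 16 pairs. RPF was higher for the cytosolic enzyme in both replicates in 16 of 16 pairs, by 2.18- to 39.7-fold, with a median of 2.87 on the log2 scale. The mRNA level was higher for the cytosolic enzyme in both replicates in 15 of 16 pairs. The exception was leucine, where the Lars mRNA level was 0.033 and 0.032 times that of Lars2, while its RPF level was 6.11 and 3.26 times that of Lars2. Leucine was thus the pair in which the assays pointed in opposite directions, in both replicates.

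By the mean over replicates, the pair for asparagine was farthest apart in RPF and the pair for isoleucine was closest. Nars exceeded Nars2 by 39.7- and 26.2-fold in RPF and by 25.6- and 29.6-fold in mRNA. Aars exceeded Aars2 by 31.9- and 32.3-fold in RPF, so the replicate ranges of these pairs overlapped. Iars exceeded Iars2 by 2.73- and 2.19-fold in RPF and by 3.18- and 3.60-fold in mRNA. For Iars, 18.7% of coding windows occur at more than 1 genome place, against 0% for Iars2. For glutamate, Eprs exceeded Ears2 by 17.6- and 18.5-fold in mRNA and by 2.18- and 4.26-fold in RPF, so this pair was closer than the pair for isoleucine in replicate 1 and their ranges overlapped.

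**Figure D2:**
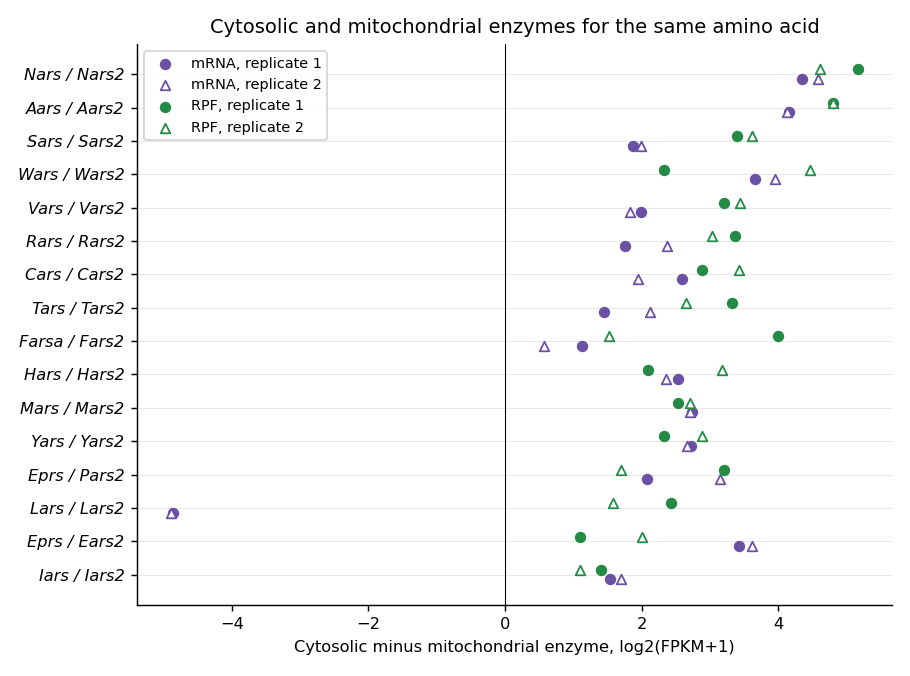
Each row is an amino acid with a cytosolic and a mitochondrial enzyme, and the horizontal axis is the cytosolic minus the mitochondrial level on the log2(FPKM+1) scale. Circles are replicate 1 and triangles replicate 2, in purple for mRNA and green for RPF. Every RPF point lies above 0, whereas both mRNA points of the leucine pair lie at -4.86 and -4.88.

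RPF was next compared with mRNA for each gene, to ask which synthetases had more or fewer ribosome footprints than their transcript level. Among the 36, Dars had more RPF and Lars2 had less, and the other 34 did not pass the test. The fit was limma on log2(FPKM+1), with each library centered on the median of the 8327 genes tested, and a gene passed with a difference of 1 or more on the log2 scale and a Benjamini-Hochberg adjusted p under 0.05. Over all genes tested, 6.65% passed with RPF higher and 5.31% with RPF lower, 12% in all, so 1 of 36 in either direction is not above the background. At an unadjusted p under 0.05 by limma, 4 of the 36 (11.1%) had RPF higher and 7 (19.4%) had RPF lower, against 16.3% and 20% of all genes tested, so neither share was above the background. The median difference was -0.26 for the cytosolic genes and -0.51 for the mitochondrial genes, beside -0.24 for all genes tested. These values depend on the centering: without it the median of all genes was 1.26, 18 synthetases passed with RPF higher and 1 with RPF lower, 24 synthetases changed sign, and 98.4% of all calls were higher, against 55.6% with centering.

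**Figure D3:**
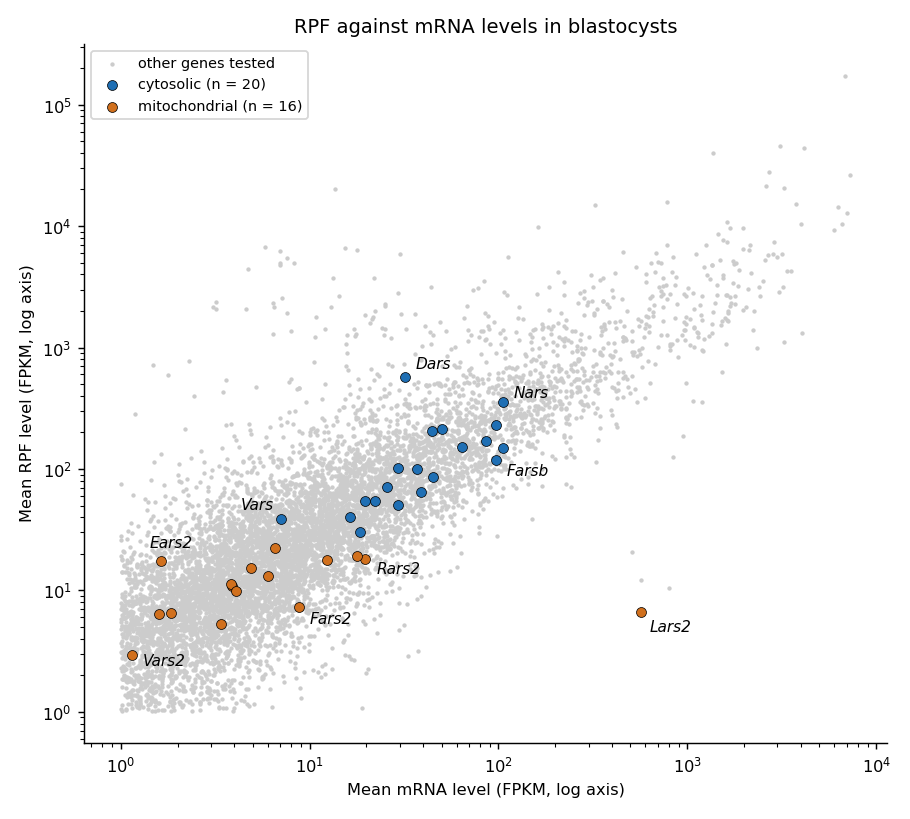
Mean RPF level against mean mRNA level, both in FPKM on log axes, with the 8327 genes tested in gray, the 20 cytosolic synthetases in blue, and the 16 mitochondrial ones in orange. Dars lies above the cloud of the other cytosolic enzymes, and Lars2 lies far to the lower right, at an RPF level shared with the lowest mitochondrial genes.

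Dars (chr1:130260285-130313993, minus strand, NCBIM37) lay among the middle cytosolic genes in mRNA and at the top in RPF. Its mRNA level was at or above that of 79.2% of the genes tested, and its RPF level at or above that of 94.4%. The mean RPF level was 17.9965 times the mean mRNA level in FPKM, where the other cytosolic genes ranged from 1.22 to 5.46 times. The log2 difference was 2.56 (SE 0.42, limma, 95% CI 1.42 to 3.71, adjusted p = 0.0405). The 2 Ribo-seq libraries were 1.84-fold apart, the widest gap of a cytosolic gene. Both lay above both RNA-seq libraries in FPKM, as they did for every cytosolic gene. No coding window of Dars occurs at more than 1 genome place. The difference stayed between 2.08 and 4.06 in all 13 settings, and the call was lost in 4 of these, among them with a pseudocount of 0.1 (adjusted p = 0.0626 by limma) and without RNA-seq replicate 1 or 2 (adjusted p = 0.31 and 0.329).

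Lars2 (chr9:123276058-123371782, plus strand), the leucyl enzyme of mitochondria, had 527 and 606 FPKM of mRNA, at or above 97.9% of the genes tested. Its RPF level was 5.96 and 7.39 FPKM, worth 8 and 9 footprints, at or above 18.4% of the genes tested. The other 15 mitochondrial genes had mRNA levels up to 21.2 FPKM, so Lars2 alone made up most of the mitochondrial sum of 625 and 704 FPKM, which was 97.8 and 97.4 FPKM without it. The log2 difference was -7.71 (SE 0.27, limma, 95% CI -8.47 to -6.96, adjusted p = 0.00653). It stayed between -7.99 and -6.21 in all 13 settings, and the call was lost in 3 of these, among them without RNA-seq replicate 1 or 2 (adjusted p = 0.25 and 0.251).

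The mRNA level of Lars2 is counted over its whole transcript and the RPF level over its coding sequence. In the GENCODE transcript, 0 of 2682 coding windows of 28 bases occur at more than 1 genome place. In the 3′ untranslated region, 245 of 986 windows do, at up to 8 places, between transcript positions 3017 and 3400. No window matched the mitochondrial genome, where the closest stretch differed at 7 of 28 bases. The authors kept reads with up to 20 places. Ribo-seq reads were cleared of rRNA before mapping, a step not described for RNA-seq. The Lars2 windows were not compared with rRNA sequences, so a part of rRNA reads in its mRNA level was not tested. The part of the repeated windows in the mRNA level was not tested, since the FPKM do not show where reads fell.

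**Figure D4:**
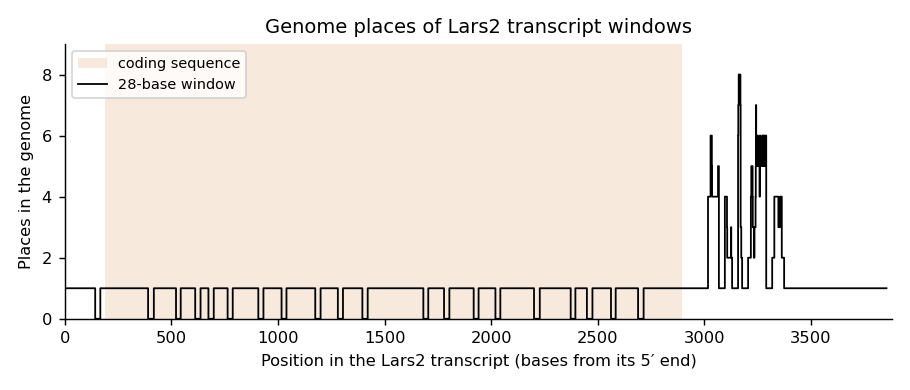
The horizontal axis is the position in the Lars2 transcript in bases from its 5′ end, and the line gives the number of places in the genome at which the 28-base window starting there occurs. The shaded span is the coding sequence, drops to 0 are windows across splice junctions, and the windows at up to 8 places lie behind the stop codon.

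Among the cytosolic genes that did not pass, Vars and Aars had the largest positive differences. For Vars it was 0.79 (95% CI 0.12 to 1.46, limma adjusted p = 0.103), and for Aars 0.66 (95% CI 0.01 to 1.31, limma adjusted p = 0.133). Farsb, Kars, and Lars had the largest negative ones, although all 3 were above 0 without centering (0.29, 0.47, and 0.66). For Farsb it was -1.21 (95% CI -1.86 to -0.56, limma adjusted p = 0.0515), for Kars -1.03 (adjusted p = 0.0714), and for Lars -0.84 (adjusted p = 0.131).

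Among the mitochondrial genes, Ears2 had a difference of 1.26 (95% CI 0.23 to 2.29, limma adjusted p = 0.0983). Its mRNA level was 1.43 and 1.82 FPKM, beside 17 and 8 footprints in Ribo-seq. The Ears2 gene shares exonic bases with Ubfd1. Fars2 had a difference of -2.18, with an interval from -4.70 to 0.34 and 1 footprint in replicate 1. Rars2 had -1.66 (95% CI -2.70 to -0.63, limma adjusted p = 0.0628), Tars2 -1.45 (adjusted p = 0.0925), and Sars2 -1.01 (adjusted p = 0.0849), of which the last 2 were above 0 without centering (0.047 and 0.49). Differences of Iars2 (0.11) and Aars2 (0.00) were the next highest of the mitochondrial genes after Ears2.

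**Figure D5:**
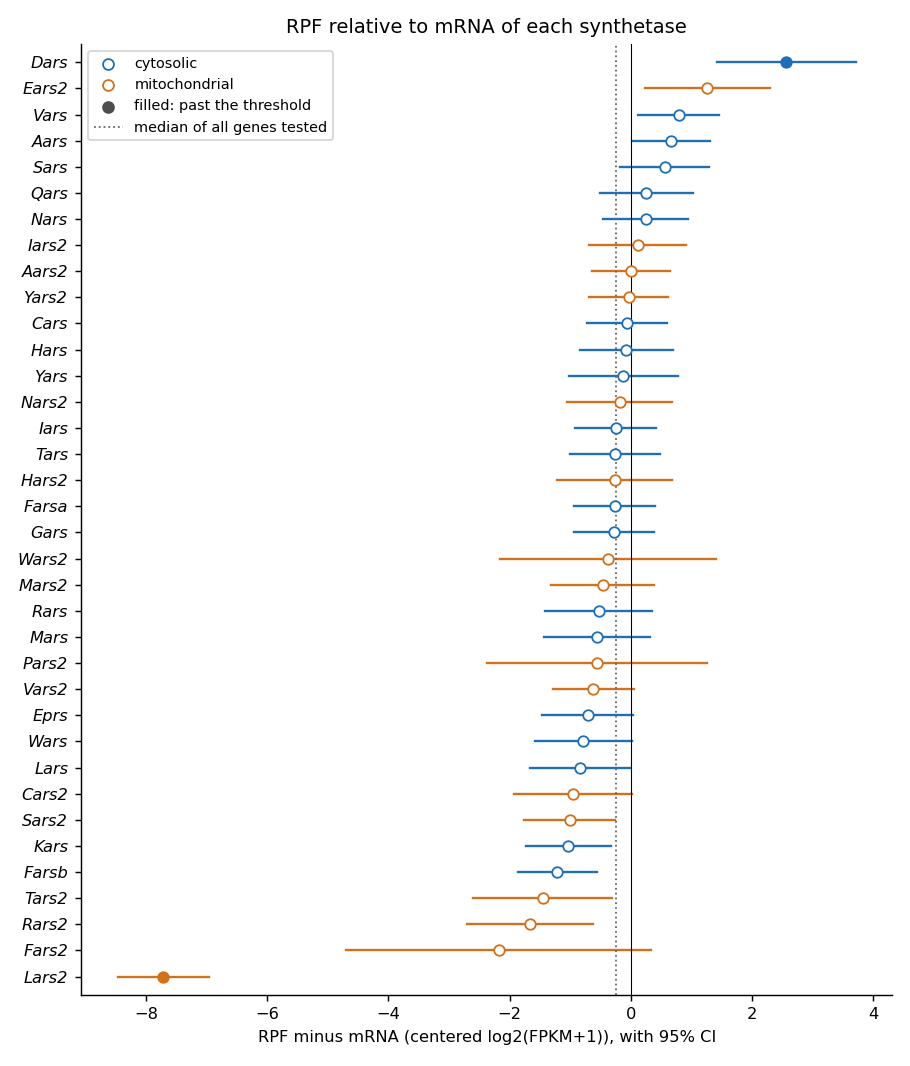
Each row is a synthetase, and the point is its RPF minus mRNA difference on the centered log2(FPKM+1) scale with the 95% confidence interval from limma. Filled points passed the threshold, and the dotted line is the median of all genes tested, -0.24. Dars at 2.56 and Lars2 at -7.71 are filled, and the intervals are widest for Fars2, Pars2, and Wars2.

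The 8 cytosolic enzymes of the multi-tRNA synthetase complex (Dars, Eprs, Iars, Kars, Lars, Mars, Qars, and Rars) were set beside the 12 others. Their median mRNA level was 32.4 and 31.9 FPKM against 41.3 and 43.3, and their median RPF level was 86.3 and 103 FPKM against 100 and 119. The complex included both the highest (Dars) and the lowest (Lars) cytosolic RPF level, so the groups overlapped over nearly their whole range. Their median difference of RPF from mRNA was -0.54 against -0.10 (centered log2 scale), a gap of -0.44 that was -0.070 for means over members. Of the 8, only Dars passed the test.

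In FPKM, the genes of the scaffold proteins lay above most enzyme genes of the complex. The effective length taken for RPF was 324.6 of 525 coding bases for Eef1e1 and 1305.6 of 1506 for Dars. RPF levels of short coding sequences are raised by this relative to long ones. Aimp1 had 101 and 120 FPKM of mRNA and 371 and 313 FPKM of RPF. Aimp2 had 96.3 and 127 FPKM of mRNA and 187 and 155 FPKM of RPF. Eef1e1, also known as AIMP3, had 146 and 186 FPKM of mRNA and 454 and 474 FPKM of RPF. Of the complex enzymes, only Dars exceeded Aimp1 in RPF in both replicates, and only Kars reached the mRNA level of a scaffold gene in replicate 1.

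Synthetases also fall into classes I and II, which differ in the fold of the catalytic domain. The 10 cytosolic class II genes had a median RPF level of 185 and 178 FPKM, and the 9 class I genes 57.1 and 72.9 FPKM, with Eprs left out as it holds an enzyme of each class. The classes overlapped, since class I reached 193 FPKM (Rars, replicate 2) and class II went down to 38.9 FPKM (Farsa, replicate 2). In mRNA the medians were 50.9 and 63.9 FPKM for class II and 30.9 and 27.98 FPKM for class I. Among the mitochondrial genes, the RPF medians were 9.11 and 13.4 FPKM for class II and 13.2 and 12.04 FPKM for class I, with no such order in both replicates.

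Transcript features also differed between the compartments. The median coding length was 2076 bases for the cytosolic genes, from 1446 (Wars) to 4539 (Eprs), and 1615.5 bases for the mitochondrial genes, from 1083 (Wars2) to 3183 (Vars2). The median 3′ untranslated region was 265.5 bases for the cytosolic and 557 bases for the mitochondrial genes. Of the 36 coding sequences, 30 had no window at more than 1 genome place. Hars and Hars2 are neighbors that share exonic bases, and 1.88% of the Hars2 coding windows occur at more than 1 place, so their values are less certain. Exonic bases are also shared by Mars with Ddit3 and by Iars2 with Rab3gap2, among others.

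The bases around the start codon are given for the genes with the highest and lowest differences of RPF from mRNA in each compartment, as these bases lie where ribosomes begin. Each line holds 9 bases before the start codon, the start codon in capitals, and 1 base after it, from GENCODE transcripts on NCBIM37. Farsb is replaced by Kars, the next lowest cytosolic gene, since the Farsb transcript has fewer than 9 bases before the start codon. Vars, the next highest cytosolic gene after Dars, and Fars2, the next lowest mitochondrial gene after Lars2, are added.
Dars: agtgtcctgATGc
Vars: tgcacagccATGt
Kars: tgttccgccATGt
Ears2: ctagtccacATGg
Fars2: gcttctataATGg
Lars2: tcctgaagaATGg
A purine at the base 3 before the ATG together with a G just after it, the usual strong context, was found in 11 of 19 cytosolic and 7 of 15 mitochondrial genes with enough sequence, and in 41.3% of 19574 coding genes. Dars, which passed with RPF higher, had neither base of this context, and Lars2, which passed with RPF lower, had both. These letters are a description and were not related to the measured values by a test.

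Several cytosolic synthetases are known targets of ATF4, a factor of the amino acid response that binds composite C/EBP-ATF elements. The RefSeq promoter table (GRCm38.p6, 250 bases before to 50 after a transcript start) held 27 of the 36 members. The motif TGATGNAA was searched on both strands, with matches allowed to overlap those of other motifs. It was found in 5 of 13 cytosolic genes, in 0 of 14 mitochondrial genes, and in 3.97% of all 32851 promoter windows. For each of the 5 genes, the match nearest the transcript start is printed on the strand that reads TGATGNAA, with the motif in capitals and 11 bases on each side, because these lines show which members share it.
Aars: tcagagcgctcTGATGAAAagtgacccgct
Gars: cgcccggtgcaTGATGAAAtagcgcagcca
Iars: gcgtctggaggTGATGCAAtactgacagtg
Tars: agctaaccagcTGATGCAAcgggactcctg
Yars: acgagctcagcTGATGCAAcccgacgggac
On NCBIM37, where these sequences were placed by matching the surrounding promoter, the Aars site lies at chr8:113557740-113557769 (minus strand). The others lie at chr6:54987954-54987983 (Gars, minus), chr13:49777495-49777524 (Iars, minus), chr15:11329410-11329439 (Tars, plus), and chr4:128867139-128867168 (Yars, plus). The printed matches of Gars and Tars begin 30 and 15 bases before the RefSeq start, and those of Aars, Iars, and Yars 9, 7, and 3 bases after it. In Yars the motif contains the ATG of the coding sequence in the GENCODE transcript.

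The 5 genes with the motif did not form a group by level. Their RPF levels ran from 53.1 FPKM (Iars, replicate 1) to 239 FPKM (Gars, replicate 1). The cytosolic genes that were searched and lacked the motif ran from 38.9 FPKM (Farsa, replicate 2) to 748 FPKM (Dars, replicate 2). Cars, Hars, Lars, Nars, Rars, Vars, and Wars had no promoter window and were not searched. The RPF minus mRNA differences were 0.66 for Aars, -0.27 for Gars, -0.25 for Iars, -0.26 for Tars, and -0.12 for Yars, and none passed the test. The E-box CACGTG was found in 4 of 13 cytosolic genes (Aars, Farsb, Iars, and Tars), in 1 of 14 mitochondrial genes (Ears2), and in 7.15% of all windows. A match is not a binding site, and these libraries do not measure binding.

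Partner genes of the synthetases were read from a list of 19, of which 18 had a mean of at least 1 FPKM in both assays. None of the 18 passed the test by limma, with 3 higher (16.7%) and 5 lower (27.8%) at an unadjusted p under 0.05, against 16.3% and 20% of all genes tested. Eef1a1, which delivers charged tRNA to cytosolic ribosomes, had 2916 and 3059 FPKM of mRNA and 5900 and 5187 FPKM of RPF. Its mitochondrial counterpart Tufm had 59.3 and 57.4 FPKM of mRNA and 105 and 109 FPKM of RPF. The delivery factors were thus ordered like the enzymes of the compartments, although 89.6% and 79.8% of their coding windows occur at more than 1 genome place.

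Mitochondria make glutaminyl-tRNA by amidation, with a complex of Gatb, Gatc, and Qrsl1, and no mitochondrial glutaminyl enzyme is listed among the 36. Gatb had 10.2 and 9.80 FPKM of RPF, beside 7.12 and 8.43 FPKM of mRNA. Qrsl1 had 8.15 and 19.5 FPKM of RPF, beside 5.77 and 7.07 FPKM of mRNA. Gatc had 70.7 and 78.0 FPKM of RPF, from 10 footprints in each library on a short coding sequence, and 9.12 and 12.7 FPKM of mRNA. Gatb and Qrsl1 lay in the range of the mitochondrial synthetases in RPF, and Gatc lay above it in both replicates.

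Among the factors that hydrolyze mischarged tRNA, Prorsd1 had the highest difference of the 18 partners, but it did not pass the test. Prorsd1, which removes alanine from the tRNA for proline, had 219 and 99.2 FPKM of RPF, from 36 and 15 footprints, and 11.04 and 9.18 FPKM of mRNA. Its log2 difference was 2.24 (95% CI 1.01 to 3.47, limma adjusted p = 0.0522). The Prorsd1 coding sequence is short, with an effective length of 309.6 of 510 bases, which raises its RPF level relative to long ones. Of its transcript windows, 14.8% occur at more than 1 genome place, against 0% of its coding windows. The part of either in the difference was not tested. The other factors of this kind did not pass either, with log2 differences of -0.051 (Dtd1), 0.36 (Aarsd1), and 1.18 (Dtd2). Sepsecs, the last enzyme of selenocysteine synthesis on tRNA, was below the filter in mRNA, at 0.769 and 1.16 FPKM, with 21.0 and 9.42 FPKM of RPF. The other partners had RPF levels from 6.45 FPKM (Mtfmt, which formylates the mitochondrial initiator tRNA) to 113 FPKM (Aarsd1 and Trnt1).

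Other families of the translation machinery were read beside the synthetases. Of 82 cytosolic ribosomal protein genes tested, 10 passed with RPF higher (12.2%) and 24 with RPF lower (29.3%), and their median difference was -0.76. Of 78 mitochondrial ribosomal protein genes, 2 passed higher (2.56%) and 8 lower (10.3%), with a median of -0.60. Of 50 initiation factor genes, 4 passed higher (8%) and 2 lower (4%), with a median of -0.14. Over all genes tested the shares were 6.65% and 5.31%, and the median was -0.24. Repeated genome windows were not counted for these families. The median RPF level of the mitochondrial ribosomal proteins was 132 and 111 FPKM, 11.1 and 8.497 times that of the mitochondrial synthetases. Their median mRNA level was 67.8 and 87.8 FPKM, 14.02 and 19.26 times that of the mitochondrial synthetases. The gap was thus larger in mRNA than in RPF in both replicates. The effective length raises RPF levels of short coding sequences. Coding lengths of these families were not compared, so the part of this effect was not tested.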

How the data were processed

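Blastocyst RNA-seq and Ribo-seq were analyzed, with 2 libraries per assay grouped by their labels. The authors deposited FPKM values per gene symbol. Per the labels and the study's methods, RNA-seq reads were trimmed with Trim Galore (0.4.2) and mapped to mm9 with STAR (2.5.3a). Ribo-seq reads were trimmed with cutadapt (1.14), cleared of rRNA with Bowtie2 (2.2.2), and mapped with STAR at up to 2 mismatches. Both kept reads with up to 20 places and were quantified with Cufflinks (2.2.1), over whole transcripts in RNA-seq and over coding sequences in Ribo-seq.

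Where a symbol repeated, the highest FPKM was used (313 symbols in RNA-seq, 163 in Ribo-seq). RPF and mRNA were compared with limma (3.58.1, R 4.3.3) on log2(FPKM+1), a scale that understates changes of low genes. Libraries were centered on the median of the 8327 genes with a mean of at least 1 FPKM in both assays, and p-values were adjusted over all of them. Groups of synthetases were described by medians, with no test. Members, lists, and tests were chosen with earlier results of these data known. The genes given in full were the 3 highest and lowest per compartment by RPF and by difference, those past the threshold, those at or under 3 footprints, the extreme pairs, Gars, Kars, Farsa, Farsb, Eprs, and the scaffolds.

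Footprints and depth came from the steps of low FPKM values, using the default effective length of Cufflinks (fragment mean 200, SD 80 bases), and 83.3% and 84.1% of the low Ribo-seq values fell within 0.1 of a whole footprint, where chance gives 20%. In RNA-seq 61.6% and 59.4% did, so its depth is less certain. Footprints of single genes are estimates rounded to whole numbers. Before rounding, 12 and 11 of the 16 mitochondrial genes lay within 0.1 of a whole footprint in the Ribo-seq replicates. Of the 20 cytosolic genes, 5 and 4 did, so the cytosolic footprints are approximate. Genome places of 28-base windows were counted on NCBIM37 with GENCODE vM1, whereas the authors mapped to a transcriptome. On simulated data the limma fit was run on 8327 genes with 200 changed. It recovered 0% of changes of 2, 94% of changes of 4, and 98% of changes of 6 on the log2 scale. Of its 201 calls at 4 and 209 calls at 6, 13 each were false. In the data 996 genes passed, more than were changed in the simulation, so these shares do not give the power there. Absence of a call for a small difference is still uninformative. The replicate numbers did not pair the libraries (correlation of deviations 0.01). Tables were handled with Python 3.11.15, numpy 2.4.6, and pandas 2.3.3, and plots drawn with matplotlib 3.10.9. Alternatives were another pseudocount, other filters, no centering, quantile normalization, the replicate block, a variance trend, summed symbols, and each library left out. Some items are not reported here.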

Additional observations from a re-analysis of the deposited data

How the results depend on the processing

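Dars kept its direction in all 13 settings and its call in 9, and Lars2 kept its direction in all 13 and its call in 10. The counts of synthetases with RPF higher and lower, 1 and 1, became 0 and 1 with a pseudocount of 0.1, 1 and 5 with a minimum of 5 FPKM (27 synthetases tested), and 3 and 1 with no filter. They became 18 and 1 without centering, 2 and 2 with quantile normalization, and 1 and 4 with a variance trend. The counts over all genes, 554 higher and 442 lower, became 308 and 154, 620 and 751, 1396 and 3096, 4113 and 65, 618 and 574, and 861 and 716 in the same order. The genes tested numbered 5083 with a minimum of 5 FPKM, 13402 with no filter, and 8327 in the other settings of this list. Farsb gained a lower call with the minimum of 5 FPKM, quantile normalization, and the variance trend (limma adjusted p = 0.0202, 0.0393, and 0.0112). Kars and Rars2 gained a lower call with that minimum and with the variance trend, and Sars2 with that minimum. Ears2 gained a higher call with no filter and with quantile normalization, and Vars with no filter. Leaving out a library gave 0 to 2 synthetases higher and 0 to 7 lower, and 0 to 1268 and 0 to 1987 over all genes. By limma, the counts were 0 without either RNA-seq replicate, where 1293 and 1250 genes had an unadjusted p under 0.05, and a lone library is assumed to vary like the other assay. Without either Ribo-seq replicate, 7 and 6 synthetases passed lower, and Dars and Lars2 passed in both fits. The cause of these changes was not tested.

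The replicate numbers did not pair the libraries, since the deviations of same-numbered libraries had a correlation of 0.01. With the replicate number as a block, 0 synthetases and 0 genes passed in either direction by limma, with 2594 genes at an unadjusted p under 0.05, and the adjusted p was 0.11 for Dars and 0.0672 for Lars2.

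Without centering, 24 synthetases changed sign. The differences became 1.43 (Cars), 1.23 (Farsa), 1.23 (Gars), 1.42 (Hars), 1.25 (Iars), 1.24 (Tars), 1.38 (Yars), 1.32 (Nars2), and 1.47 (Yars2), which then passed with RPF higher. For those that did not pass they became 0.79 (Eprs), 0.29 (Farsb), 0.47 (Kars), 0.66 (Lars), 0.95 (Mars), 0.97 (Rars), 0.72 (Wars), 0.55 (Cars2), 1.24 (Hars2), 1.04 (Mars2), 0.94 (Pars2), 0.49 (Sars2), 0.047 (Tars2), 0.88 (Vars2), and 1.13 (Wars2). Other changes of sign were in genes that passed in neither fit. With no filter the differences were 0.20 (Cars), 0.00080 (Farsa), 0.19 (Hars), 0.019 (Iars), 0.0099 (Tars), 0.15 (Yars), 0.0046 (Hars2), 0.089 (Nars2), and 0.23 (Yars2). With quantile normalization they were -0.054 (Nars), 0.030 (Nars2), 0.63 (Vars2), 0.34 (Wars2), and 0.080 (Yars2), and with a pseudocount of 0.1 the difference of Yars2 was 0.020. With a library left out, the differences ranged from -0.26 to 0.11 (Hars), -0.44 to 0.19 (Yars), -0.014 to 0.021 (Aars2), -0.62 to 0.091 (Hars2), -0.11 to 0.34 (Iars2), -0.48 to 0.12 (Nars2), -1.37 to 0.25 (Pars2), -1.23 to 0.48 (Wars2), and -0.073 to 0 (Yars2).

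The cytosolic median stayed above the mitochondrial median in both assays under every alternative run. The log2 difference in mRNA was 3.09 with a pseudocount of 0.1, 2.36 for means over members, 2.72 without Gars and Kars, 2.67 to 2.84 with a library left out, and 2.98 without Lars2, an alternative chosen after seeing the data. The difference in RPF was 2.76 to 3.05 with a library left out. The difference in the ratio of RPF to mRNA, 0.26, was 0.056 with a pseudocount of 0.1, 0.91 for means over members, and 0.25 to 0.47 with a library left out. Between complex members and other cytosolic genes, the difference for means over members was -0.032 in mRNA, -0.10 in RPF, and -0.070 in the ratio, beside -0.43, -0.20, and -0.44 for medians. Leaving out a library gave -0.43 to -0.34 in mRNA and -0.72 to -0.16 in the ratio. Depth limits the mitochondrial RPF values, most of which rest on fewer than 20 footprints.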
